A study of Mus musculus with 52 samples.

Results

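The comparison of dexamethasone with no dexamethasone was restricted to daughter-cell pairs with high Gata1 and without high Mpo. A pair was the 2 daughters of 1 mouse BFU-E (burst-forming unit-erythroid) founder, and it was kept if each daughter held at least 100000 counts, at least 6.5 log2(CPM + 1) of Gata1 and less than 10 log2(CPM + 1) of Mpo, where CPM is the count of a gene scaled to a library total of 1e6. This left 17 of 26 pairs, or 34 of 52 libraries, with 9 of 13 Dex pairs and 8 of 13 NoDex pairs. Of the remaining 9 pairs, 6 were deep enough but failed on Gata1 or Mpo, and 3, all NoDex, held a shallow library. The pairs were chosen by depth and by the levels of Gata1 and Mpo, so those levels are given only as a description.

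Founders were C57/Bl6J fetal liver cells from embryonic day 14.5, depleted of antibody-labelled mature blood, stem, granulocyte and megakaryocyte cells and then sorted with antibodies to CD117, CD71 and CD24. Each founder sat alone in a well. Dex founders were cultured with 100 nM dexamethasone and NoDex founders without it, for 16 hours, and the wells in which the founder had divided a single time were used. Polyadenylated RNA of each daughter was sequenced separately, so all values describe the progeny of a first division in culture. The labels name no animal or litter, so a p-value here measures the spread between founder cells and their wells, which may be partly technical. Pair numbers were treated as names only.

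Dexamethasone is a synthetic glucocorticoid that binds the glucocorticoid receptor, a ligand-activated transcription factor held in the cytoplasm by Hsp90 and its co-chaperones until hormone arrives. The bound receptor enters the nucleus and acts on genes such as Tsc22d3, Fkbp5 and Per1. BFU-E are early progenitors committed to red cell formation, and glucocorticoids are known to favour their self-renewal over maturation during stress erythropoiesis. Gata1 and Klf1 are the transcription factors that drive erythroid genes, and Mpo encodes myeloperoxidase, an enzyme of granulocyte precursors.

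The label of these cells was checked against erythroid markers. Klf1, which the rule did not use, reached 10 CPM in 18 of 18 Dex cells and 16 of 16 NoDex cells, as did the carbonic anhydrase gene Car2. Rhag, which encodes a red cell membrane protein, reached it in 16 of 18 Dex and 16 of 16 NoDex cells, the erythropoietin receptor gene Epor in 14 of 18 Dex and 15 of 16 NoDex cells, and the haematopoietic factor Tal1 in 10 of 18 Dex and 14 of 16 NoDex cells. Per cell, Gata1 spanned 7.66 to 11.42 log2(CPM + 1) in Dex and 6.90 to 9.77 in NoDex. At the Gata1 threshold the lowest member cell stood at 6.90, and the best of the 6 other deep pairs had its lower cell at 3.93. At the Mpo threshold the highest member cell stood at 9.12, and the mildest of the other deep pairs had a cell at 12.46. Single cells of the other deep pairs fell within the range of member cells, with Gata1 up to 9.01 and Mpo down to 3.06 log2(CPM + 1).

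**Figure D1:**
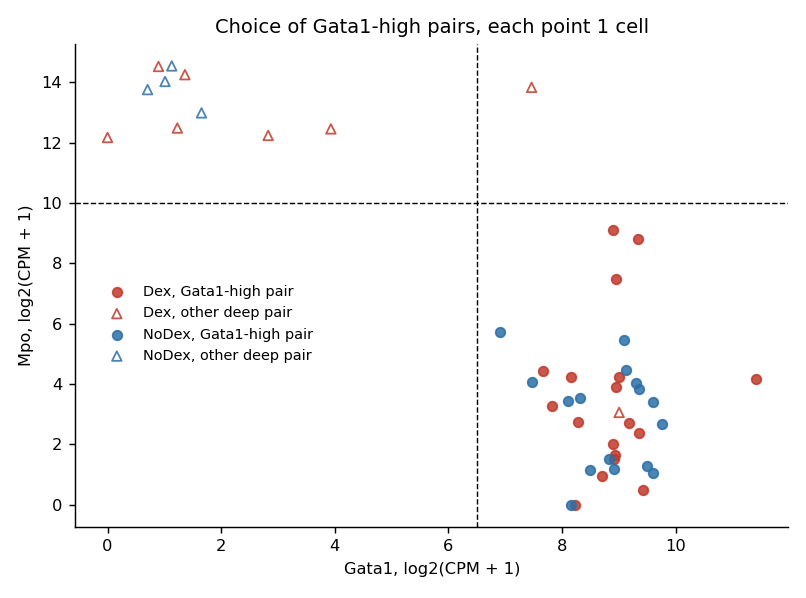
Each point is 1 cell of the 23 deep pairs, with Gata1 on the horizontal and Mpo on the vertical axis, both in log2(CPM + 1). Dashed lines mark the thresholds of 6.5 and 10, filled circles are cells of Gata1-high pairs and open triangles cells of other deep pairs. The lowest member cell on the Gata1 axis is at 6.90, and the 2 highest member cells on the Mpo axis are the daughters of Dex pair 9.

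Depth overlapped between the groups. Library totals ran from 1191155 to 4176347 counts in Dex and from 405058 to 5606500 in NoDex, and 6029 to 9034 genes were detected per Dex cell against 6862 to 9089 per NoDex cell. The log2 total of a pair averaged 22.41 ± 0.33 in Dex and 22.20 ± 0.96 in NoDex (SD, n = 9 and 8 pairs), and an exact two-sided permutation test over pairs gave p = 0.673. Genes detected averaged 7771 ± 997 per Dex pair and 7931 ± 443 per NoDex pair, with an exact permutation p of 0.685. The distance between daughters, 1 minus the Pearson correlation across 7439 genes, averaged 0.470 ± 0.042 in Dex and 0.459 ± 0.032 in NoDex, a difference of 0.0102 with an exact permutation p of 0.582. Adjusted over these 3 tests every p was 0.685.

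Some pairs stood apart in both treatments. NoDex pair 5 was the shallowest, at 20.01 on the log2 scale, and 1 of its cells held the lowest Gata1 of any member cell, 6.90 log2(CPM + 1). It also held the highest NoDex sum over 13 megakaryocyte markers, at 1250 CPM, while the NoDex median of that sum was 151 CPM. Dex pair 8 was the highest on the same sum in Dex, at 968 CPM, with a Dex median of 153 CPM. That pair also held the lowest Klf1 of all pairs, at 201 CPM, and Epor at 0 CPM. Its globin genes Hba-a1 and Hbb-bs were at 0.866 and 1.52 CPM, while its Tsc22d3, at 150 CPM, was the highest of all pairs. Dex pair 9 held the most Mpo, at 522 CPM, and with it the highest sum over 15 granulocyte and monocyte markers, 558 CPM in Dex pair 9 against a highest NoDex value of 119 CPM. Of these 15 markers 6 reached 10 CPM in some pair and 4 were at 0 in every pair. None of the 12 lymphoid markers reached 10 CPM in any of the 17 pairs. The part of these markers in the results below was not tested. Fits without NoDex pair 5 or Dex pair 9 are given for Tsc22d3, Mt1, Nsun5, Hbb-bs and Hba-a1. Other genes were not all given both ways and may also depend on these pairs.

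The question was which transcripts dexamethasone altered among pairs that passed the same thresholds for depth, Gata1 and Mpo. Depth and erythroid transcripts still varied between these pairs. Tsc22d3 was present in nearly every Dex pair and nearly absent from NoDex pairs, Mt1 and Glul were higher in most Dex pairs, and no gene was called across the transcriptome. Counts of the 2 daughters were summed and tested with edgeR's quasi-likelihood test. Of 7389 genes tested, 0 had an adjusted p under 0.05, which is 0.0% called. At an unadjusted p under 0.05 there were 132 genes, or 1.79%, of which 89 (1.2%) were higher and 43 (0.582%) were lower in Dex. Where no gene differs, a threshold of 0.05 passes a share of about 0.05, and the edgeR share was lower. The unadjusted p given below therefore single out no gene. DESeq2 called 0 with 242 at an unadjusted p under 0.05, and limma-trend on mean log2(CPM + 1) of a pair called 0 with 389. Over all genes 50.8% had a positive log2 fold change in edgeR. In 0 genes (0.0%) did the pair means of the 9 Dex and 8 NoDex pairs not overlap.

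**Figure D2:**
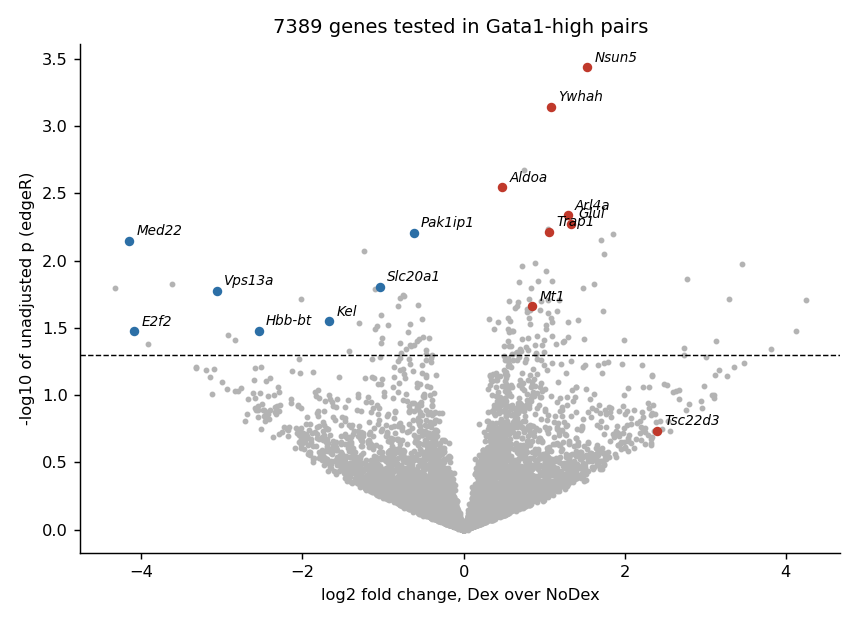
Each grey point is 1 of the 7389 genes tested, with the log2 fold change of Dex over NoDex on the horizontal and -log10 of the unadjusted edgeR p on the vertical axis. The dashed line is p = 0.05, and coloured points are named genes, red where higher and blue where lower in Dex. Nsun5 and Ywhah have the smallest p, and Tsc22d3 lies below the line at a log2 fold change of 2.4.

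Tsc22d3 encodes the glucocorticoid-induced leucine zipper, a target of the receptor in many blood cells. The gene (ENSMUSG00000031431) lies at chrX:140539528-140600659 on the minus strand of GRCm38. Summed over daughters, its lowest, median and highest levels were 0, 90.4 and 150 CPM in Dex pairs against 0, 0 and 136 CPM in NoDex pairs. All Dex pairs except pair 9 held 38.8 CPM or more, and all NoDex pairs except pair 5 held 0.0977 CPM or less, so the groups overlapped through those 2 pairs alone.

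In mean log2(CPM + 1) Tsc22d3 stood at 4.79 ± 2.21 in Dex and 0.50 ± 1.37 in NoDex (SD, n = 9 and 8 pairs), a difference of 4.28, and an exact two-sided permutation test over the 24310 assignments of pairs gave p = 0.000987. This gene was already known to stand out in these data, so the p is no independent evidence. limma-trend ranked it 1 of 7389 genes with a difference of 4.28 ± 0.89 (SE) and an adjusted p of 0.617. edgeR, which weighs summed counts, gave a log2 fold change of 2.4 ± 1.7 (SE) with an adjusted p of 1.00. Without NoDex pair 5 edgeR called Tsc22d3 with an adjusted p of 0.00466, the lone gene called. In limma-trend without Dex pair 9, a fit added after the data were seen, it was also the lone call, with an adjusted p of 0.0238. Each of these fits left out a pair that went against the Tsc22d3 difference, so the calls are no independent evidence. edgeR without Dex pair 9 called 0 genes. Over 9 Dex pairs there were 4325 Tsc22d3 counts among 51367701, and over the 7 NoDex pairs other than pair 5 there was 1 count among 43552958. That ratio is 3670, with a 95% exact interval of 658 to 145000 that covers counting error only. With NoDex pair 5 included, the NoDex counts summed to 144 and the ratio was 26.1, with an exact interval of 22.1 to 31.0. Both intervals take reads as independent draws and leave out the spread between pairs and cells, so they are too narrow for a treatment difference. The edgeR SE of 1.7 on the log2 scale includes the spread between pairs.

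Daughters of the same founder did not always share Tsc22d3. It reached 10 CPM in 13 of 18 Dex cells and 1 of 16 NoDex cells. Both daughters reached it in 5 of 9 Dex pairs, a single daughter in 3 and neither in 1, against 0, 1 and 7 of the 8 NoDex pairs. Dex pair 1 had 2 counts in one cell and 640 in its sister, pair 11 had 557 and 0, and pair 13 had 0 and 450. Dex pair 4 was even, at 315 and 253 counts. In NoDex pair 5 all 143 counts were in 1 daughter and the other held 0. Whether a daughter at 0 lacked the transcript or lost it in library preparation cannot be told apart with these counts.

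**Figure D3:**
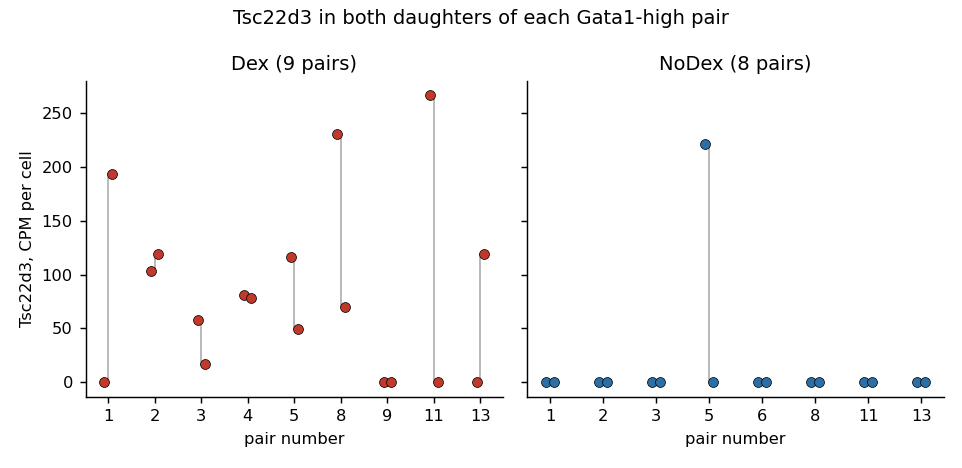
Tsc22d3 in CPM for each daughter, with Dex pairs on the left and NoDex pairs on the right, and a grey line joining the 2 daughters of a pair. Of 18 Dex cells 13 are at 10 CPM or more, and of 16 NoDex cells only 1, a daughter of pair 5, is.

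Plate columns were read from well codes in the sample labels, which name no batch, and the cut into columns 1 to 4 and 5 to 7 was made here. Both sets held pairs of both treatments, 6 Dex with 6 NoDex and 3 Dex with 2 NoDex. Within columns 1 to 4, the NoDex pairs were in columns 1 and 2 and the Dex pairs in columns 3 and 4. Within columns 1 to 4 the Tsc22d3 difference was 5.28 (exact permutation p = 0.00216, the smallest these pairs allow), and within columns 5 to 7 it was 2.44 (exact permutation p = 0.4, where 0.1 is the smallest possible). Of the single columns only column 6 held both treatments, with 1 pair each, so effects of single columns and of dexamethasone cannot be told apart.

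Of the receptor targets described here, Glul and Hif3a were not given an exact test. Among those that were, the metallothionein gene Mt1, whose product binds zinc and copper, had the next smallest exact p after Tsc22d3. Its lowest, median and highest levels were 457, 768 and 1160 CPM in Dex pairs against 243, 337 and 1300 CPM in NoDex pairs. All 9 Dex pairs lay above the NoDex median, but NoDex pair 13 was the highest of all. The mean difference was 1.03 log2 units, at 9.66 ± 0.51 in Dex and 8.63 ± 0.82 in NoDex (SD, n = 9 and 8), with an exact permutation p of 0.00868. For Mt1 edgeR gave 0.85 ± 0.34 (SE) with an adjusted p of 1.00. Leaving out 1 pair at a time, that value ran from 0.74 (without NoDex pair 5) to 1.28 (without NoDex pair 13). Within plate columns 1 to 4 the difference was 1.44 (exact permutation p = 0.00216) and within columns 5 to 7 it was -0.15 (exact permutation p = 0.8).

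Its neighbour Mt2, another metallothionein gene, ran 0, 141 and 330 CPM in Dex against 0.95, 20 and 130 CPM in NoDex. Of the Dex pairs 5 exceeded every NoDex pair, while 2 lay below all of them. The log2 fold change was 1.75 ± 1.1 (SE) with an edgeR adjusted p of 1.00, and the mean log2 difference was 2.94 in columns 1 to 4 and -2.45 in columns 5 to 7.

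Glul encodes glutamine synthetase, a known glucocorticoid-inducible enzyme of nitrogen metabolism. It ran 57.6, 143 and 428 CPM in Dex pairs and 45.9, 73.3 and 170 CPM in NoDex pairs, and 4 Dex pairs exceeded every NoDex pair. edgeR gave 1.34 ± 0.43 (SE), an unadjusted p of 0.0053 and an adjusted p of 1.00, and the difference in mean log2(CPM + 1) was 0.92 in columns 1 to 4 and 2.57 in columns 5 to 7.

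The start regions of the 3 genes with the clearest values are shown because receptor dimers are known to bind an inverted repeat, here searched as ACANNNTGT, a palindrome that reads the same on both strands. Windows run from 250 bases before to 50 after a start in RefSeq's GRCm38.p6 annotation and are printed in the direction of the gene, with matches in capitals. The Glul window is chr1:153899679-153899978 on the plus strand, the Mt1 window chr8:94178839-94179138 on the plus strand, and the Tsc22d3 window chrX:140542619-140542918 on the minus strand, 1 of 3 listed starts.
Glul: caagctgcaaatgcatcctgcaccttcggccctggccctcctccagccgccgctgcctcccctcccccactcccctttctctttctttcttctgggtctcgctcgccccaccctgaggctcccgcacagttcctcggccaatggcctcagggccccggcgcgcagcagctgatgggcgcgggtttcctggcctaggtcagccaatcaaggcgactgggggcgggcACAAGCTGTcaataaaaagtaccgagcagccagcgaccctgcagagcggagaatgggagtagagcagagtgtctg
Mt1: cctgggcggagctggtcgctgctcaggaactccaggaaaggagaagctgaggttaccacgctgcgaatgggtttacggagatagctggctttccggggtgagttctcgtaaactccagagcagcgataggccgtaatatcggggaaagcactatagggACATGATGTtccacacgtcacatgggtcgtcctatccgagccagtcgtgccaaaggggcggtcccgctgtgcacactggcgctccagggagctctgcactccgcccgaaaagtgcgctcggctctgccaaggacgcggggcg
Tsc22d3: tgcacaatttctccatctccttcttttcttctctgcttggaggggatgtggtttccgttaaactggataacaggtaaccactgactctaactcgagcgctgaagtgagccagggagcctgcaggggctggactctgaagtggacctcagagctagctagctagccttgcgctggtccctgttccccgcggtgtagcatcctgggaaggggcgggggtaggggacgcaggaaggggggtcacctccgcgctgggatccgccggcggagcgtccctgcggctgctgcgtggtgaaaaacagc
Glul holds ACAAGCTGT starting 25 bases before its start and Mt1 holds ACATGATGT starting 92 bases before. The 3 Tsc22d3 windows hold no match, and neither do those of Fkbp5, Per1, Klf9 and Mt2. Of all 32851 windows of this length, 6.85% hold the motif. A match is only a match of letters, and gene counts do not tell which start was used.

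Fkbp5 encodes a co-chaperone that dampens the receptor. It ran 0, 13.3 and 78.7 CPM in Dex and 0, 0.475 and 28.4 CPM in NoDex, and 5 of 9 Dex pairs but 1 of 8 NoDex pairs reached 10 CPM. The mean log2 difference was 1.43 with an exact permutation p of 0.17. Per1, a clock gene with a known receptor site, ran 0, 35.2 and 68 CPM in Dex and 0, 0.466 and 49.2 CPM in NoDex. Its difference was 1.94 with an exact permutation p of 0.0607. In columns 1 to 4 Per1 differed by 3.44 and Fkbp5 by 2.76, and in columns 5 to 7 by -1.25 and -1.83, each with 3 Dex and 2 NoDex pairs there.

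Klf9, a transcription factor that responds to glucocorticoids in many tissues, ran 0.217, 33 and 78.7 CPM in Dex and 0, 7.23 and 43.7 CPM in NoDex, with an exact permutation p of 0.0723. It reached 10 CPM in 8 of 9 Dex and 4 of 8 NoDex pairs. The difference was alike in both sets of columns, 1.45 in columns 1 to 4 and 1.72 in columns 5 to 7. Hif3a, a relative of the hypoxia-inducible factors, ran 0.273, 102 and 390 CPM in Dex and 0, 13.2 and 161 CPM in NoDex, at a log2 fold change of 2.00 ± 1.2 (SE) and an edgeR adjusted p of 1.00. Leaving out 1 pair at a time, that fold change ran from 1.63 (without Dex pair 4) to 3.10 (without NoDex pair 8). The mean log2 difference of Hif3a was 3.74 within plate columns 1 to 4 and -0.68 within columns 5 to 7.

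The other targets named here did not follow. Zfp36, which encodes the mRNA-destabilising protein tristetraprolin, had a median of 0 CPM in Dex and 13.2 CPM in NoDex and a mean log2 difference of -1.22 with an exact permutation p of 0.0614. Zfp36l2, a relative that is known to hold BFU-E in self-renewal, had medians of 20.9 CPM in Dex and 18.5 CPM in NoDex and a log2 fold change of 0.16 ± 1.1 (SE), which turned negative in several other fits. Its mean log2 difference was 0.49 within columns 1 to 4 and -3.55 within columns 5 to 7. Sgk1, a kinase gene, Ddit4, an mTOR inhibitor gene, and Cdkn1c, a cell cycle inhibitor gene, stayed under 10 CPM in all 17 pairs and were not tested by edgeR. Ddit4 had counts in 4 of 9 Dex pairs, at most 5.09 CPM, and in none of the 8 NoDex pairs, with an exact permutation p of 0.0824.

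Of the 37 genes on the list of glucocorticoid targets 14 passed the expression filter, 8 were at 0 in all 17 pairs, and 14 of the 23 untested ones stayed under 10 CPM in every pair. Among the 14 tested, 11 leaned higher and 3 lower in Dex by log2 fold change, with 10 higher under the relative log expression (RLE) scaling, and the median was 1.30. The 23 untested genes have no part in these counts. Over all genes the median was 0.01. None of the 14 was called, and 2 of them, Glul and Mt1, had an unadjusted p under 0.05, both higher. A gene that is high in 1 group can pass the filter through that group alone, so these counts describe the list and test nothing. Altogether 22 genes were given an exact permutation test, and no p adjusted over that selection is given.

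**Figure D4:**
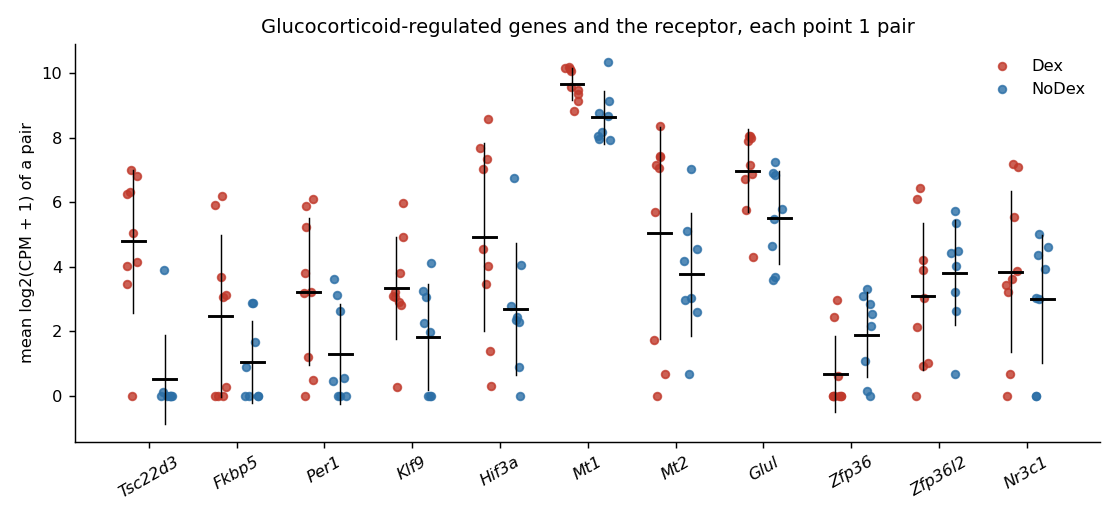
Mean log2(CPM + 1) of a pair for 10 glucocorticoid-regulated genes and the receptor gene Nr3c1, with Dex on the left and NoDex on the right of each gene. Points are pairs (9 Dex, 8 NoDex), thick bars are means and thin lines ± 1 SD. Tsc22d3 shows the widest separation, with Dex pair 9 and NoDex pair 5 as the exceptions, and Mt1 is high in every pair of both groups.

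The receptor itself was measured at low and uneven levels. Nr3c1, which encodes the glucocorticoid receptor, ran 0, 57.4 and 162 CPM in Dex and 0, 34.5 and 92.1 CPM in NoDex, with a mean log2 difference of 0.85 and an exact permutation p of 0.452. Within columns 1 to 4 that difference was 1.63, and within columns 5 to 7 it was -0.20. Hsp90aa1, the inducible Hsp90 gene, ran 711, 950 and 2060 CPM in Dex and 951, 2050 and 2380 CPM in NoDex. Of the Dex pairs 5 lay below every NoDex pair, at a log2 fold change of -0.47 ± 0.23 (SE) with an edgeR adjusted p of 1.00. The Hsp90 partner Fkbp4 leaned the other way, with medians of 1680 CPM in Dex and 1400 CPM in NoDex and a log2 fold change of 0.41 ± 0.21 (SE). Of 9 tested genes on the list of the receptor and its chaperones 5 were positive and 4 negative, with a median of 0.18.

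Outside the receptor targets, the smallest edgeR p belonged to Nsun5, a gene for an RNA cytosine methyltransferase that modifies ribosomal RNA. It ran 97.4, 191 and 507 CPM in Dex pairs and 34.2, 79.5 and 97.4 CPM in NoDex pairs. The groups met at their edges in summed CPM, with 8 of 9 Dex pairs above every NoDex pair. In mean log2(CPM + 1) Dex pair 11 stood at 4.78, within the NoDex range of 3.29 to 6.63. The log2 fold change was 1.54 ± 0.35 (SE), with an unadjusted p of 0.000363 and an adjusted p of 1.00 in edgeR. Without Dex pair 9 it was 1.22. DESeq2 gave Nsun5 an adjusted p of 0.0577, and limma-trend ranked it 59 with an adjusted p of 0.849. Ywhah, which encodes the eta form of the 14-3-3 adaptor proteins, ran 329, 598 and 863 CPM in Dex and 116, 289 and 433 CPM in NoDex, with 7 of 9 Dex pairs above all NoDex pairs. Its log2 fold change was 1.08 ± 0.27 (SE) with an edgeR adjusted p of 1.00. The adjusted p of Ywhah was 0.0908 in DESeq2 and 0.832 in limma-trend. The mean log2 differences within columns 1 to 4 and 5 to 7 were 2.28 and 0.80 for Nsun5, and 1.37 and 0.36 for Ywhah.

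The glycolytic gene Aldoa, which encodes aldolase A, was abundant and had little spread. It ran 1760, 2310 and 2750 CPM in Dex and 1240, 1660 and 1920 CPM in NoDex, and 7 of 9 Dex pairs exceeded every NoDex pair, at a log2 fold change of 0.48 ± 0.14 (SE). Ldha, the gene of lactate dehydrogenase A, ran 2040, 2930 and 3090 CPM in Dex and 1480, 2430 and 2750 CPM in NoDex, with 6 Dex pairs above all NoDex pairs and a fold change of 0.31 ± 0.13 (SE) on the log2 scale. Its mean log2 difference was 0.25 with an exact permutation p of 0.0657. Tpi1, for triosephosphate isomerase, was at 0.37 ± 0.19 (SE). None of the 18 tested glycolysis genes was called, 12 were positive and 6 negative, and the median was 0.08.

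The other named genes with small p and higher levels in Dex had mixed roles. Arl4a, a small GTPase gene, had medians of 339 CPM in Dex and 110 CPM in NoDex. Atpaf2, an assembly factor of the mitochondrial ATP synthase, had medians of 200 CPM in Dex and 108 CPM in NoDex, and Trap1, the mitochondrial Hsp90, had 614 CPM in Dex and 280 CPM in NoDex. Inpp5b, an inositol phosphatase gene, reached 993 CPM in Dex pair 11, and its log2 fold change was 1.85 with and 1.06 without that pair. Their edgeR adjusted p was 1.00 throughout.

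Among genes lower in Dex, several were at or near 0 in most Dex pairs. Med22, a Mediator subunit gene, ran 0, 0.271 and 20.3 CPM in Dex and 7.6, 78.3 and 242 CPM in NoDex, with 7 of 9 Dex pairs below every NoDex pair and an edgeR log2 fold change of -4.15 ± 1.4 (SE). Vps13a, which encodes a lipid transfer protein, ran 0, 2.81 and 20.9 CPM in Dex and 9.39, 37.6 and 112 CPM in NoDex, with 8 of 9 Dex pairs below all NoDex pairs. Tmub2 had medians of 0.271 CPM in Dex and 40.3 CPM in NoDex. Both phosphate transporter genes were on this side: Slc20a1 had medians of 86.6 CPM in Dex and 209 CPM in NoDex, and Slc20a2 had 0.154 CPM in Dex and 22.3 CPM in NoDex. Pak1ip1, a ribosome biogenesis factor gene, ran 160, 209 and 272 CPM in Dex and 234, 330 and 464 CPM in NoDex, and 6 Dex pairs lay below every NoDex pair. Bclaf1 and Elp5 differed by -0.75 ± 0.29 and -0.73 ± 0.28 (SE, log2). All of these had an edgeR adjusted p of 1.00.

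The erythroid programme was compared next, since maturation could differ even within Gata1-high pairs. Klf1 ran 201, 631 and 2210 CPM in Dex and 419, 762 and 1550 CPM in NoDex, at a log2 fold change of 0.10 ± 0.38 (SE) in edgeR. Its mean log2 difference was -0.13 with an exact permutation p of 0.754. Epor was at 0.02 ± 0.69 (SE) in edgeR, and its mean log2 difference was -1.13 with an exact permutation p of 0.289. The signs of both turned under other settings. Gata1 itself had medians of 501 CPM in Dex and 541 CPM in NoDex. Of 19 erythroid regulators tested 11 were positive and 8 negative, 9 positive under RLE scaling, and the median was 0.03. Nfia, a factor of erythroid commitment, had medians of 37.2 CPM in Dex and 8.54 CPM in NoDex, with 6 Dex pairs above all NoDex pairs and an edgeR adjusted p of 1.00. Its mean log2 difference was 2.77 within columns 1 to 4 and -0.81 within columns 5 to 7.

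Later erythroid genes leaned to the NoDex side. Of 33 tested late erythroid genes 13 were positive and 20 negative in Dex, with a median of -0.25 and none called. Kel, for the Kell blood group protein, ran 5.09, 33.6 and 148 CPM in Dex and 31.3, 157 and 397 CPM in NoDex, with 4 Dex pairs below every NoDex pair. Its log2 fold change was -1.67 ± 0.70 (SE), with an unadjusted p of 0.0283 and an adjusted p of 1.00 in edgeR. Blvrb, for biliverdin reductase B, had medians of 294 CPM in Dex and 494 CPM in NoDex. The transferrin receptor gene Tfrc, which supplies iron for haemoglobin and is CD71 of the sort, had medians of 176 CPM in Dex and 374 CPM in NoDex. Its mean log2 difference was -0.94 with an exact permutation p of 0.203. Dex pair 8, high in megakaryocyte markers, held the lowest Blvrb and Tfrc of all pairs, at 33.8 and 46.8 CPM. The part of that pair in the late erythroid, heme and globin values was not tested.

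The 9 heme synthesis genes were all tested, with 2 positive and 7 negative, and a median of -0.15. Alas2, the erythroid enzyme of the opening step, had medians of 0 CPM in Dex and 27 CPM in NoDex, and reached 10 CPM in 2 of 9 Dex and 6 of 8 NoDex pairs. Cpox, for coproporphyrinogen oxidase, ran 0.217 (pair 8), 87.5 and 457 CPM in Dex and 92.8, 112 and 678 CPM in NoDex. Of the Dex pairs 5 lay below all NoDex pairs for Cpox. Alas2 and Cpox both had an edgeR adjusted p of 1.00.

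Adult globin transcripts were present at widely varying levels in both groups, and reads of the near-identical copies may be split between them. Hbb-bt, an adult beta globin gene, ran 0, 17.2 and 145 CPM in Dex and 1.9, 111 and 491 CPM in NoDex. Its mean log2 difference was -2.53 with an exact permutation p of 0.0539, and edgeR gave -2.54 ± 1.1 (SE) with an adjusted p of 1.00. Hbb-bs, its neighbour, ran 1.52, 126 and 5960 CPM in Dex and 83.9, 922 and 5280 CPM in NoDex. The highest Dex value was pair 9, and without that pair the log2 fold change of Hbb-bs was -3.86 instead of -0.91. Without NoDex pair 6 it was -0.24. For Hba-a1, an alpha globin gene, leaving out Dex pair 9 turned 0.32 into -1.55. Of the 4 adult globins 2 were positive and 2 negative in edgeR, and 0 were positive in limma-trend or with Mpo under 8, which leaves out the same pair. None was called, and no embryonic globin passed the filter.

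Progenitor genes showed no shared direction. Myb, a factor of proliferating progenitors, ran 6.71, 73.8 and 250 CPM in Dex and 0, 43.6 and 56.5 CPM in NoDex, with 6 Dex pairs above every NoDex pair and a mean log2 difference of 1.52 with an exact permutation p of 0.123. Myc had medians of 701 CPM in Dex and 353 CPM in NoDex and a mean log2 difference of 1.01 with an exact permutation p of 0.134. Kit, the stem cell factor receptor and CD117 of the sort, and Gata2, which acts before Gata1, were at log2 fold changes of -0.09 ± 0.82 and 0.19 ± 1.5 (SE), with signs that turned under other settings. The mean log2 difference of Kit was -0.24 with an exact permutation p of 0.838, and within plate columns 1 to 4 it was 1.77, against -4.76 within columns 5 to 7. That of Gata2 was 0.34 with an exact permutation p of 0.767. Of 16 early progenitor genes tested 9 were positive and 7 negative, with a median of 0.16.

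Genes of the G1/S transition, which include the replication machinery, mostly had negative fold changes. Of 52 tested 14 were positive and 38 negative, with a median of -0.29, and none was called. E2f2, an E2F factor that is prominent in erythroid cells, ran 0, 0 and 24.7 CPM in Dex and 0, 31.9 and 184 CPM in NoDex, at -4.09 ± 1.8 (SE, log2) and an unadjusted p of 0.0334. Rrm2, the small subunit of ribonucleotide reductase, had medians of 457 CPM in Dex and 1030 CPM in NoDex. Rfc2, of the clamp loader, went against the list, with medians of 450 CPM in Dex and 300 CPM in NoDex and an unadjusted p of 0.0483. Among 53 G2/M genes 22 were positive and 31 negative, with a median of -0.04. The mitotic kinesin gene Kif20a had medians of 255 CPM in Dex and 123 CPM in NoDex, and Cks2, for a cyclin-dependent kinase subunit, had 136 CPM in Dex and 164 CPM in NoDex.

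Of 29 ribosome biogenesis genes 21 were positive and 8 negative, with a median of 0.22 and none called. Nop16, a nucleolar protein gene, had medians of 587 CPM in Dex and 421 CPM in NoDex and an unadjusted p of 0.0431, and Nolc1 was at 0.51 ± 0.25 (SE, log2), and at 0.32 without Dex pair 11. Of 8 mitochondrially encoded genes that passed the filter 7 were negative, with a median of -0.35. The exception was mt-Cytb, for cytochrome b, with 5980, 9280 and 11500 CPM in Dex and 5230, 6920 and 11200 CPM in NoDex and an unadjusted p of 0.0321. Its antisense neighbour mt-Nd6 was at -0.54 ± 0.34 (SE, log2), and at -0.36 without NoDex pair 8. Of 23 cholesterol synthesis genes 10 were positive, and Sqle, for squalene epoxidase, had medians of 507 CPM in Dex and 352 CPM in NoDex.

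Targets of Stat5, the factor downstream of the erythropoietin receptor, split 3 positive to 7 negative among 10 tested, with a median of -0.33. Cish, its feedback inhibitor gene, ran 0, 9.54 and 115 CPM in Dex and 0.0977, 76.5 and 310 CPM in NoDex, and Pim1, a survival kinase gene, had medians of 6.48 CPM in Dex and 13.8 CPM in NoDex. Cish was at -2.06 ± 1.3 (SE) with an edgeR adjusted p of 1.00. Among 10 tested p53 targets 7 were positive and 3 negative, with a median of 0.36. Bax, a pro-apoptotic gene, had medians of 150 CPM in Dex and 126 CPM in NoDex at 0.83 ± 0.34 (SE, log2), and the anti-apoptotic gene Mcl1 had 63.4 CPM in Dex and 27.7 CPM in NoDex.

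**Figure D5:**
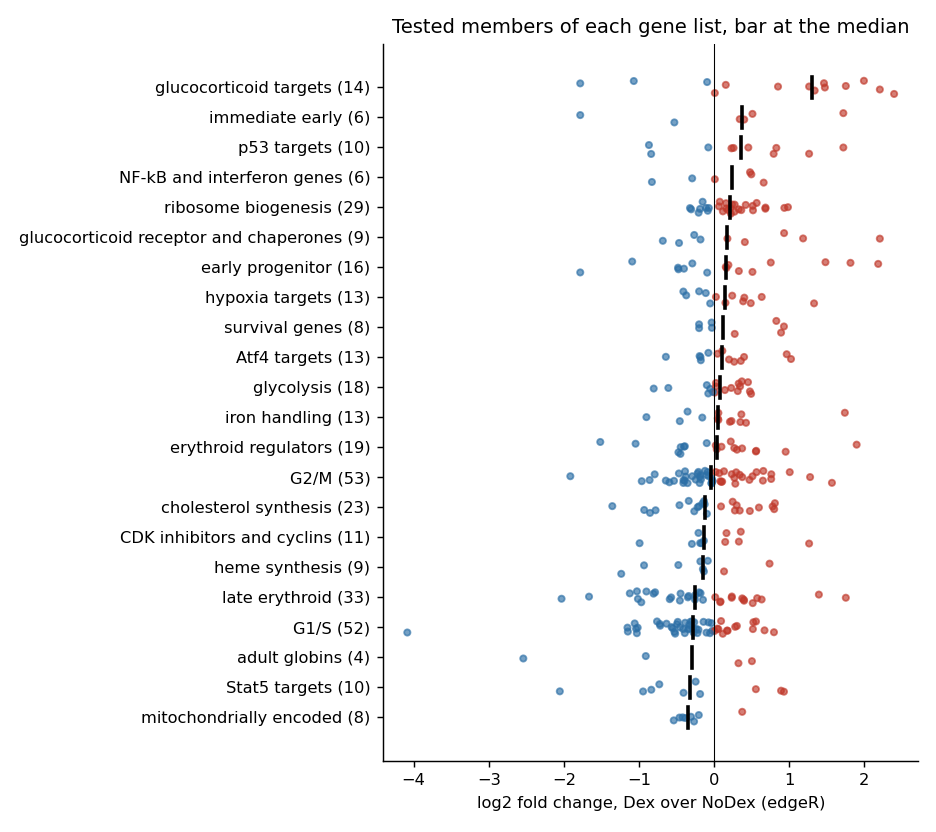
Log2 fold changes of Dex over NoDex (edgeR) for the tested members of each of 22 gene lists, ordered by median, with the number tested in parentheses. Points are genes, red above 0 and blue below, and black bars are medians. The glucocorticoid targets have the highest median, 1.30, and all other lists lie between -0.35 and 0.37.

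Whether dexamethasone differed in its effect between Gata1-high pairs and the other 6 deep pairs, 4 Dex and 2 NoDex, was tested as an interaction. The test covered 7190 genes and called 65 (0.904%) at an adjusted p under 0.05 in edgeR, 7 with a higher and 58 with a lower difference in Gata1-high pairs. No gene at all was called within Gata1-high pairs, so none of these could be. Tsc22d3 was not among the 65, at an interaction of 1.91 and an adjusted p of 0.855. In the other deep pairs Tsc22d3 stood at 81, 0.198, 82.8 and 1.39 CPM in Dex pairs 6, 7, 10 and 12 and at 0.173 and 47.8 CPM in NoDex pairs 9 and 10. These pairs are of mixed kind: Klf1 was at 62.3 and 1570 CPM in Dex pairs 10 and 12 and at most 3.98 CPM in the other 4.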

How the data were processed

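Polyadenylated RNA of 52 single daughter cells was measured, 26 with and 26 without dexamethasone. The deposited files hold the authors' unnormalized read counts by gene, 1 table per treatment with the same 49466 genes and 0 columns left unused. STAR 2.4, featureCounts and build GRCm38 are named in the submitters' processing notes, and the sources used here give neither their settings nor the library kit nor any molecular identifiers. Read counts are therefore not counts of molecules, and intervals cover counting error only.

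The members, gene lists and genes were chosen with earlier results of these data known. Counts of the 2 cells of a pair were summed, and the pair was the replicate. edgeR 4.0.16 in R 4.3.3 kept genes by filterByExpr (minimum count 10, minimum total 15), scaled by TMM and gave quasi-likelihood p with Benjamini-Hochberg adjustment over all genes, and a gene with an adjusted p under 0.05 was called. The SE is the log2 fold change divided by the square root of F. limma 3.58.1 and DESeq2 1.42.0 were alternatives, with other scalings, filters, thresholds and sets of pairs. Single values were compared by exact permutation over pairs (Python 3.11.15, pseudocount 1 on the log2 scale). Scripts were tested on simulated data. With 0 genes called, genes were named by rule: on either side the 8 of lowest p, leaving out 1 higher and 2 lower without a proper gene name, then up to 4 of each list and 24 genes in any case. Coordinates come from GENCODE M21 and promoter windows from RefSeq.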

Additional observations from a re-analysis of the deposited data

Results flagged for a closer look

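The outlier test compared the gap of the highest or lowest pair with the range of its group for 132 groups of pairs, and 20 were marked. Its chance rate of about 1 in 20, or 6.6, holds for normally spread values only. Where all other pairs are at 0, as for Sgk1 and Cdkn1c, any pair with counts is marked. The 20 therefore cannot be set against 6.6. Gene values are given as mean log2(CPM + 1) of the pair. Tsc22d3 was marked in both groups, at 0 in Dex pair 9 and at 3.90 in NoDex pair 5. NoDex pair 5 was also low in log2 total count, at 20.01. Dex pair 9 was also low in Ldha, at 10.77, and high in Sgk1, at 0.44, a level near 0 in all pairs.

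Dex pair 11 was low in Pak1ip1 at 4.62, in Cks2 at 3.48 and in Sqle at 6.05, and NoDex pair 11 was low in Trap1 at 4.47 and in Sqle at 3.30. Dex pair 8 was low in Tfrc at 3.54 and high in E2f2 at 2.83. NoDex pair 8 was low in Rfc2 at 6.31 and in Nop16 at 6.49. The remaining marked pairs were NoDex pair 13 for Hsp90aa1 at 9.84, Dex pair 4 for mt-Nd6 at 8.48, Dex pair 3 for Alas2 at 6.82 and for Cdkn1c at 1.90, Dex pair 1 for Ddit4 at 1.73, and NoDex pair 1 for Sgk1 at 0.28.

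The effect of dexamethasone differed between Gata1-high and other deep pairs for 65 genes by the interaction test in edgeR. Of the genes named in the report, Myc had an interaction of -7.09 (adjusted p = 0.0106). In the other deep pairs Myc was at 1530, 197, 1190 and 786 CPM in Dex pairs 6, 7, 10 and 12, against 6.91 and 1.56 CPM in NoDex pairs 9 and 10. For mt-Cytb the interaction was 1.72 (adjusted p = 0.0426), with 3020 to 12400 CPM in those Dex pairs and 22400 and 16300 CPM in those NoDex pairs. The other deep pairs differ in lineage between treatments, so lineage and dexamethasone cannot be told apart there.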

How the results depend on the processing

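Across Gata1-high pairs the count of called genes was 0 under RLE scaling, library totals alone, DESeq2, limma-trend, no filter, a filter of 10 counts in 3 pairs, Gata1 of at least 6.0, Mpo under 8, the plate column set as a covariate, all deep pairs and all pairs. It was 1, Tsc22d3, with Gata1 of at least 7.0 and with 500000 counts per cell, both of which leave out NoDex pair 5. It was also 1, again Tsc22d3, in limma-trend without Dex pair 9, an alternative added after the data were seen. Leaving out 1 pair at a time gave 0 to 1 called genes. The interaction called 65 genes, 72 with RLE and 47 when genes needed 10 counts in 3 pairs. Unadjusted p under 0.05 went to 111 to 2696 genes in the fits of Gata1-high pairs other than those leaving out each pair in turn, the most with no filter, of 17350 genes. In limma-trend the median difference of all genes was -0.17. In the shallowest cell, of 405058 counts, a count of 0 allows up to 7.41 CPM (3 counts).

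Pair numbers shared by both treatments (7 of them) were treated as names. Deviations of same-numbered pairs correlated at -0.0463 to 0.0766, and 3 of 7 were closest to their own number. This check cannot exclude a shared day or litter, which no label names. With the replicate block 0 genes were called and 164 had an unadjusted p under 0.05, against 0 and 111 without the block in the same pairs.

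Depth of a pair differed by 0.208 log2 units, by -0.0137 over all deep pairs and by -0.106 to 0.363 leaving out 1 pair. Genes detected differed by -160, and by -306 to 50.4 leaving out 1 pair. The distance between daughters differed by 0.00346 to 0.02 leaving out 1 pair.

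Of 1928 alternative values of 59 named genes 1853 kept sign and side of the threshold, 4, all Tsc22d3, passed it, and 71 in 11 genes turned sign, none of them called in either fit. The fitted Tsc22d3 change of 11 without NoDex pair 5 depends on the prior count and is no bound. Epor, at 0.02, turned to -0.0041 under RLE scaling, -0.06 with library totals alone, -0.004 in DESeq2, -1.13 in limma-trend with either filter, -1.52 in limma-trend without Dex pair 9, -0.029 with Gata1 of at least 7.0 or 500000 counts, -0.45 with Mpo under 8, -0.28 with the plate covariate, -0.12 over all deep pairs, -0.26 over all pairs, -0.92 with the block and -0.45 to 0.21 leaving out 1 pair. Klf1, at 0.10, turned to -0.13 in limma-trend with either filter, -0.37 in limma-trend without Dex pair 9, -0.032 with Gata1 of at least 7.0 or 500000 counts, -0.29 with Mpo under 8, -0.086 with the plate covariate, -0.24 with the block and -0.29 to 0.34 leaving out 1 pair. Zfp36l2, at 0.16, turned to -0.74 in limma-trend with either filter, -0.48 in limma-trend without Dex pair 9, -0.012 with Gata1 of at least 7.0 or 500000 counts, -0.039 with the plate covariate, -0.59 with the block and -0.30 to 0.59 leaving out 1 pair. Hba-a1, at 0.32, turned to -0.98 in limma-trend with either filter, -1.64 in limma-trend without Dex pair 9, -1.55 with Mpo under 8, -0.65 with the plate covariate, -1.47 with the block and -1.55 to 0.74 leaving out 1 pair. Kit, at -0.09, turned to 0.043 with Mpo under 8, 0.044 in limma-trend without Dex pair 9, 0.27 over all deep pairs, 0.34 over all pairs and -0.45 to 0.51 leaving out 1 pair. Gata2, at 0.19, turned to -0.064 over all deep pairs and -0.32 to 1.07 leaving out 1 pair. With other lineages included, Kel turned to 4.69 over all deep pairs and 4.96 over all pairs, Pak1ip1 to 0.042 and 0.25, Nr3c1 to -0.18 and -0.14, mt-Cytb to -0.16 over all deep pairs and Tmub2 to 0.37 over all pairs. The cause was not tested.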

Other observations

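Lists not described in the report showed little shared direction, and none of their genes was called by edgeR. Of 13 iron handling genes, which store, move or sense iron, 9 were positive and 4 negative, with a median log2 fold change of 0.06. Hypoxia targets split 8 to 5 among 13 tested with a median of 0.15, and targets of Atf4, the amino acid stress factor, split 8 to 5 among 13 with a median of 0.11. Immediate early genes, which respond within minutes to growth factors, had 6 tested members, 4 positive and 2 negative. Survival genes of the Bcl2 family and its partners split 4 to 4 with a median of 0.12, and 6 NF-kB and interferon genes split 4 to 2 with a median of 0.24. Cell cycle inhibitors and cyclins had 5 positive and 6 negative among 11 tested, with a median of -0.14.

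Markers of further cell types were mostly at 0 or low. Summed over 9 mast cell and basophil markers, levels reached at most 17.6 CPM in Dex and 24.7 CPM in NoDex pairs, and 7 of the 9 were at 0 in every pair. Summed over 10 hepatocyte markers they reached 38.3 CPM in Dex and 90.5 CPM in NoDex, over 10 macrophage markers 10 CPM in Dex and 33.9 CPM in NoDex, and over 9 endothelial markers 135 CPM in Dex and 74.2 CPM in NoDex, with medians of 43.5 CPM in Dex and 5.57 CPM in NoDex. NoDex pair 13, which held the most Mt1, was the highest NoDex pair for the mast cell, hepatocyte and macrophage sums, and the part of these cells in its values was not tested. The 9 stem cell markers summed to at most 208 CPM in Dex and 223 CPM in NoDex.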
